A study of Mus musculus with 2 samples.

Results

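Hedgehog proteins act on a cell through a small set of surface proteins. Patched1, encoded by Ptch1, binds the ligand and keeps the signal transducer Smoothened, encoded by Smo, inactive when no ligand is present. The co-receptors Boc, Cdon and Gas1 present ligand to Patched1, and Hhip is a surface protein that binds ligand without passing a signal on. Ptch1 and Hhip are textbook target genes of the pathway and act as negative feedback, whereas Gas1, Cdon and Boc are known to be repressed by Hedgehog signalling in the neural tube. In the cerebellum the ligand Shh, made by Purkinje cells, drives the division of granule neuron precursors, and Smo made active by mutation gives rise to medulloblastoma from this lineage. The 6 genes described here, Ptch1, Hhip, Boc, Cdon, Gas1 and Smo, were chosen by name as the receptors and co-receptors of the pathway, with earlier results of these data known. They are 6 of 23746 gene records in the deposited tables, and each had 1 record.

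RNA sequencing was done on 2 mouse medulloblastoma libraries, 1 per genotype. The wild-type library came from a CAG-CreER, Rosa26-SmoM2, Brg1+/+ mouse tumour and the knockout library from a CAG-CreER, Rosa26-SmoM2, Brg1F/F mouse tumour, in which Cre can delete Brg1, the chromatin remodelling ATPase of the gene Smarca4. Both groups carried the inducible Cre and the activated SmoM2 allele, and both received 10 tamoxifen injections, given every other day. The CAG promoter is active in many cell types, so recombination of SmoM2 and Brg1 is not limited to the granule lineage by the genotype, and the labels give no age and no number of tumours per library. SmoM2 is known as a form of Smoothened that signals without ligand; its expression and recombination were not measured separately here.

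Values are FPKM, sequenced fragments normalised for transcript length and library size, so levels of different genes can be compared within a library. A gene record counted as expressed at 1 FPKM or more in at least 1 library, which 13279 records and all 6 members met. Differences between the libraries are given as log2((knockout FPKM + 1)/(wild-type FPKM + 1)), called the log2 ratio below, and a gene was called lower or higher past 2-fold, that is at -1 or below or at 1 or above. With 1 library per genotype there is no error from replicates and no test, and every difference is one between these 2 libraries. The targeted gene Smarca4 had 14.0 FPKM (wild type) against 3.76 FPKM (knockout), 26.8% of wild type. Xist, chosen after its values were seen, had 268.3 and 0.369 FPKM, so a difference in sex between the animals cannot be told apart from the genotype. The summed FPKM of 6 granule neuron precursor markers was 430.2 in wild type and 322.0 in knockout. Whether these genes are limited to precursors was not tested, so the sum is no measure of precursor number. All 6 were expressed, 1 was at least 2-fold lower and 0 higher, and their log2 ratios ran from -2.58 to 0.79. The lower one, Atoh1, a transcription factor of these precursors that is also on the list of target genes, had 67.0 FPKM (wild type) against 10.4 FPKM (knockout).

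In the knockout, 3 of the 6 members were lower by 2-fold or more (Gas1, Boc and Hhip), 0 were higher by as much, and 3 (Ptch1, Smo and Cdon) lay within 2-fold. Among all expressed records 8.67% were at least 2-fold lower and 16.1% at least 2-fold higher. Higher records made up 65.0% of the records past 2-fold. When the knockout FPKM was rescaled to the wild-type sum, the shares were 6.67% and 19.8%, and higher records made up 74.8%. With both libraries rescaled to the sum that TPM has, which also makes the added 1 smaller against the values, they were 7.71% and 23.3%, and higher records made up 75.2%. FPKM was lower in the knockout library for 5 of the 6 members and for 45.2% of expressed records. The median log2 ratio was -0.77 over the members and 0.09 over all expressed records. The co-receptors held both ends of the range, with Gas1 the lowest and Cdon the highest of the 6.

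**Figure D1:**
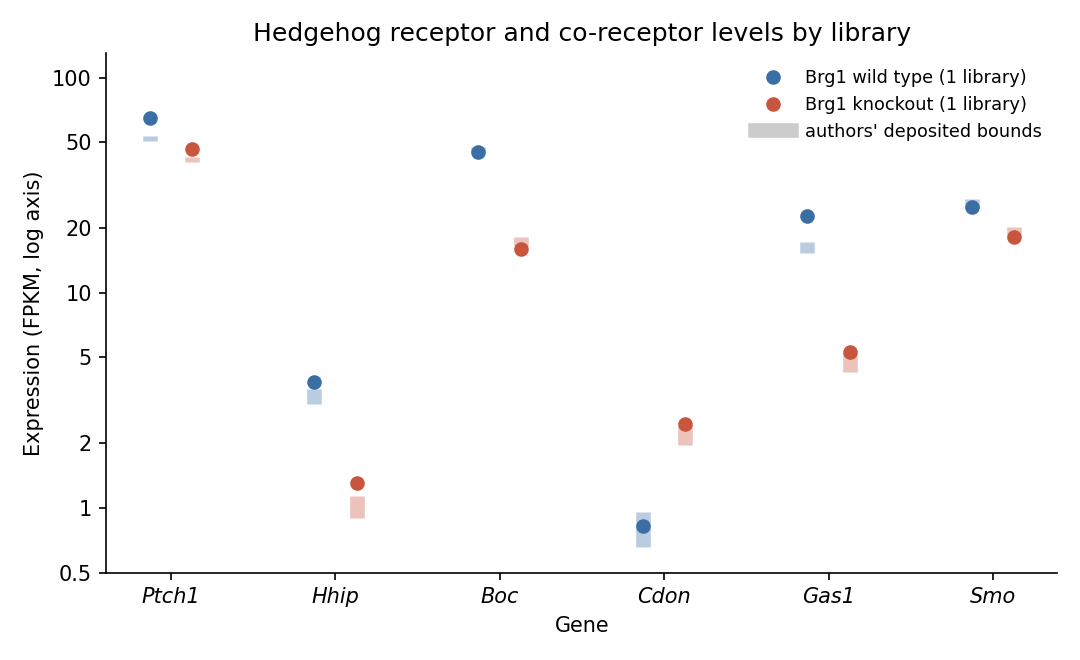
Expression (FPKM, log axis) of the 6 genes in the wild-type (blue) and knockout (red) library; points are the deposited values of 1 library each and shaded bars run from the authors' lower to upper bound. Gas1, Boc and Hhip stand well below in the knockout library, Ptch1 and Smo slightly below, and Cdon above.

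Patched1, the ligand receptor and brake on Smoothened, had the most abundant transcript of the set in both libraries. Ptch1 (mm10, chromosome 13, 63511533 to 63565520, minus strand) had 65.1 FPKM (wild type) against 46.5 FPKM (knockout), 71.3% of wild type (log2 ratio -0.48). Its level exceeded that of 93.2% of expressed records (wild type) and of 89.9% (knockout). Of all expressed records, 21.97% had a lower log2 ratio than Ptch1.

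Smoothened, the transducer that Patched1 holds in check, differed between the libraries to a like degree as Ptch1. Smo (chromosome 6, 29735497 to 29761366, plus strand) had 25.1 FPKM (wild type) against 18.2 FPKM (knockout), 72.6% of wild type (log2 ratio -0.44). Of all expressed records, 23.3% had a lower log2 ratio. The ratio of Ptch1 to Smo was 2.59 in wild type and 2.55 in knockout, or 1.995 and 2.15 from the midpoints of the deposited bounds described below. The files give 1 value for Smo, so transcripts of the normal gene and of the SmoM2 allele cannot be told apart. GENCODE M21 also places a processed pseudogene, Gm13717, within the Smo locus on the same strand, at 29750761 to 29751125.

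Hhip, the decoy receptor that binds ligand at the cell surface, was low in both libraries and lower in the knockout. Hhip (chromosome 8, 79965851 to 80058008, minus strand) had 3.84 FPKM (wild type) against 1.31 FPKM (knockout), 34.1% of wild type (log2 ratio -1.07). It ranked 5 of 6 by level in wild type and 6 of 6 in knockout. Of all expressed records, 7.67% had a lower log2 ratio. With 1 FPKM added, Hhip lay close to the 2-fold limit. Its log2 ratio was -0.96, inside 2-fold, with the knockout FPKM also rescaled to the wild-type sum. Without rescaling it was -1.26 with 0.5 FPKM added in place of 1, -1.48 with 0.1 FPKM and -1.55 with none.

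The co-receptors did not differ in the same direction. Boc, an immunoglobulin and fibronectin repeat protein known from granule neuron precursors, was the second most abundant member in the wild-type library. Boc (chromosome 16, 44485045 to 44558870, minus strand) had 44.9 FPKM there and 16.0 FPKM in the knockout library, 35.7% of wild type (log2 ratio -1.43). Of all expressed records, 4.28% had a lower log2 ratio. In the wild-type library Boc stood above Smo, at 1.79 times its level, and in the knockout library below it, at 0.879 times.

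Gas1, a co-receptor anchored to the membrane by a lipid and unrelated in structure to Boc and Cdon, had the lowest log2 ratio of the set. Gas1 (chromosome 13, 60174405 to 60177535, minus strand) had 22.7 FPKM (wild type) against 5.29 FPKM (knockout), 23.3% of wild type (log2 ratio -1.91). Of all expressed records, 1.77% had a lower log2 ratio. GENCODE M21 places a non-coding RNA gene, Gm48488, on the opposite strand over part of Gas1, and whether the libraries kept strand is not given in the sources used here. Where they overlap, from 60176682 to 60177535, fragments of these 2 genes therefore cannot be told apart.

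Cdon, the relative of Boc with the same kinds of repeats, was the 1 member with a higher level in the knockout library. Cdon (chromosome 9, 35452076 to 35507652, plus strand) had 0.820 FPKM (wild type) against 2.46 FPKM (knockout), 300.4% of wild type. The log2 ratio was 0.93, inside 2-fold because of the added 1 FPKM. With 0.5 FPKM added in its place it was 1.17, past 2-fold. Cdon counted as expressed through the knockout library alone, and 82.1% of expressed records had a lower log2 ratio. GENCODE M21 also places a start of Cdon further upstream, at 35421128, outside the deposited locus.

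Summed over Boc, Cdon and Gas1, co-receptor FPKM was 68.4 in wild type and 23.8 in knockout. Boc made up a like part of the sum in both, 65.6% and 67.4%. Gas1 went from 33.2% to 22.2% and Cdon from 1.20% to 10.4%. Boc stood at 54.7 times the level of Cdon in wild type and at 6.51 times in knockout. Gas1 stood at 27.7 and 2.15 times the level of Cdon. Boc was thus the main co-receptor transcript in both libraries, and Cdon took a larger part in the knockout.

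**Figure D2:**
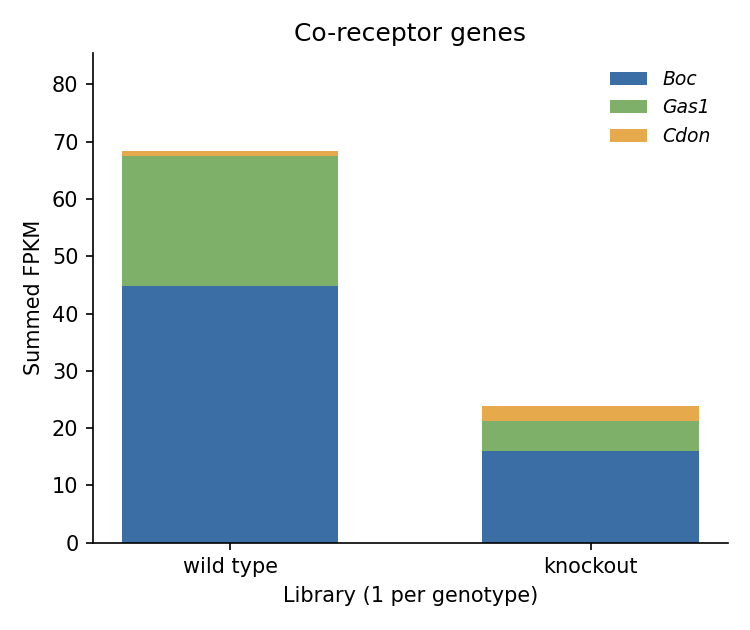
Summed FPKM (bars start at 0) of the 3 co-receptor genes Boc, Gas1 and Cdon in 1 wild-type and 1 knockout library. The sums were 68.4 and 23.8, with Boc the largest part of both bars.

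The order of levels in the wild-type library was Ptch1, Boc, Smo, Gas1, Hhip, Cdon, from 65.1 down to 0.820 FPKM. In the knockout library it was Ptch1, Smo, Boc, Gas1, Cdon, Hhip, from 46.5 down to 1.31 FPKM. Boc and Smo had changed places, as had Hhip and Cdon. The midpoints of the deposited bounds gave the same order in each library. Without replicates it cannot be said which neighbours in either order differ beyond their spread.

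The authors' deposited table gives a lower and an upper bound for each FPKM, and these did not enclose most values of the members. Of 12 member values 3 lay inside their bounds, 7 above and 2 below, and all 12 had the status OK. For Ptch1 in the wild-type library the authors' deposited bounds were 50.5 and 53.4 against 65.1 FPKM, and for Gas1 they were 15.2 and 17.2 against 22.7 FPKM. Of records of at least 1 FPKM, 52.5% (wild type) and 52.0% (knockout) also lay outside their bounds. The bounds of the 2 libraries did not overlap for any of the 6 members, which was so for 77.7% of expressed records. From the midpoints of the bounds the log2 ratios were -0.32 for Ptch1, -1.10 for Hhip, -1.35 for Boc, 0.82 for Cdon, -1.59 for Gas1 and -0.41 for Smo, each on the same side of the 2-fold limits.

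**Figure D3:**
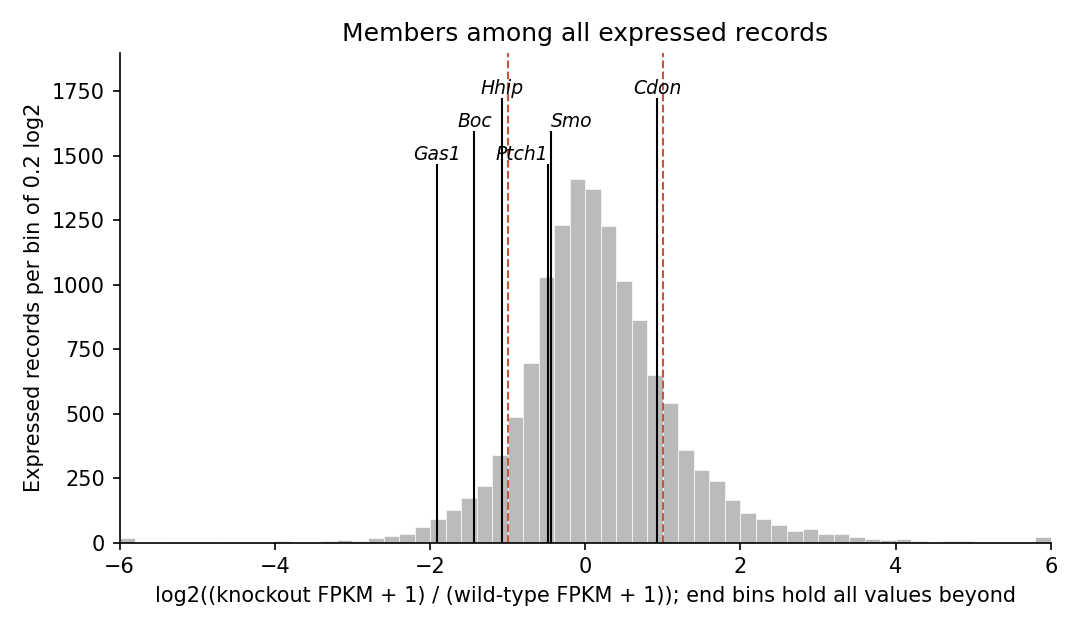
Histogram of log2 ratios of 13279 expressed records (bins of 0.2), with the 6 members as black lines and the 2-fold limits as dashed lines. Gas1, Boc and Hhip lie left of -1, Ptch1 and Smo next to each other between -1 and 0, and Cdon just inside 1.

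**Figure D4:**
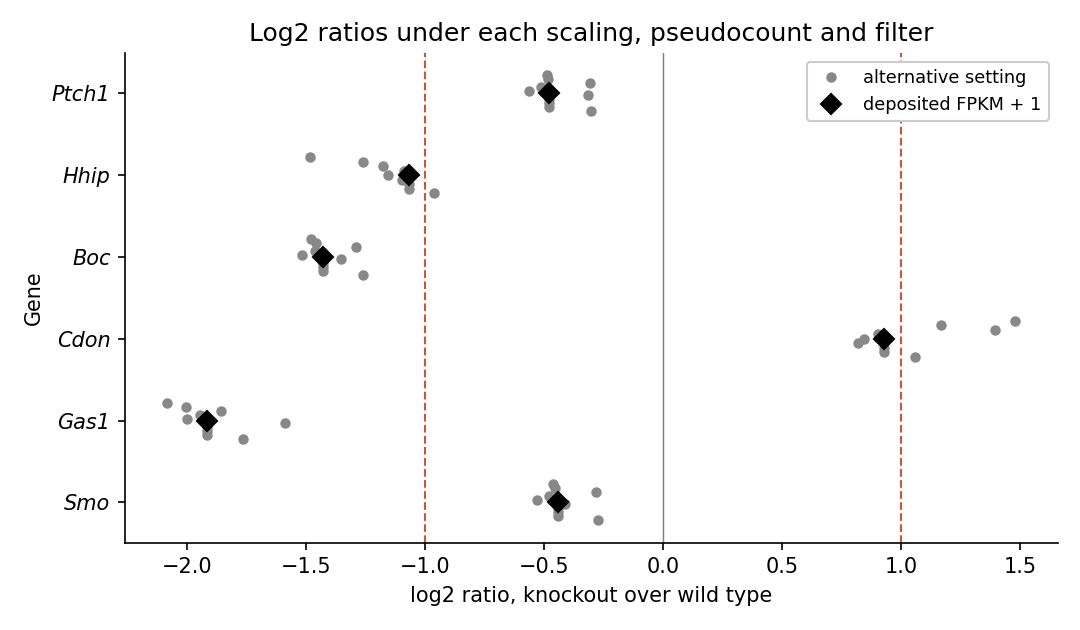
Log2 ratio of each member from deposited FPKM + 1 (diamonds) and under other scalings, pseudocounts, filters and the bound midpoints (grey points), with 2-fold limits dashed. Filters leave the ratio as it is and pseudocounts cannot turn its sign. Gas1 and Boc stayed left of -1, Ptch1 and Smo stayed between -1 and 0, and points of Hhip and Cdon fell on both sides of a limit.

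Markers of several cell types differed between the libraries along with the receptor genes. Their counts past 2-fold stand beside 8.67% of all expressed records at least 2-fold lower and 16.1% higher. The summed FPKM of 8 Purkinje cell markers was 11.7 in wild type and 736.3 in knockout, with 8 of 8 past 2-fold. For 8 astrocyte and Bergmann glia markers the sums were 489.5 and 2541 (8 of 8 higher), for 6 oligodendrocyte markers 48.0 and 587.8 (6 of 6 higher), and for 8 granule neuron markers 118.8 and 545.0 (7 of 8 higher). For 7 GABAergic interneuron markers the sums were 18.7 and 419.2, and all 6 expressed ones were higher. Whether these transcripts came from interneurons or from Purkinje cells was not tested. The sums of 8 microglia and macrophage markers were 87.2 and 225.4 (7 of 8 higher). Endothelial markers summed to 25.3 and 91.6 (2 of 6 expressed ones higher), and those of pericytes, fibroblasts and meninges to 41.2 and 141.3 (4 of 8 higher). The endothelial sums rest largely on the marker with the highest log2 ratio, at 10.2 FPKM (wild type) against 66.5 FPKM (knockout). Log2 ratios of the expressed endothelial markers ran from 0.29 to 2.60, with a median of 0.96. Markers of oligodendrocyte precursors summed to 183.4 and 66.7 (3 of 5 lower), and those of choroid plexus and ependyma to 1051 and 1108 (0 of 6 past 2-fold). All 12 genes of the cell cycle list passed 2-fold toward lower, with sums of 907.5 and 272.3. No marker in these lists was at 0 in either library. The part of cell makeup in the levels of the 6 genes was not tested, and in bulk tissue fewer cells of a type cannot be told apart from less RNA per cell.

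The rest of the pathway was read from lists of genes by role. Among 8 genes of ligands and their release, the 2 expressed ones, Hhat, which attaches a lipid to the ligand, and Disp1, which releases it, lay within 2-fold. Hhat had 1.45 FPKM (wild type) against 0.779 FPKM (knockout), and Disp1 had 1.06 and 0.749 FPKM. The ligand genes Shh, Ihh and Dhh lay between 0.0155 and 0.369 FPKM in both libraries. None of them counted as expressed. Shh had 0.0155 FPKM (wild type) against 0.369 FPKM (knockout). Ihh, with 0.307 and 0.108 FPKM, and Dhh, with 0.0483 and 0.0407 FPKM, were lower in the knockout. The knockout library also had the higher Purkinje marker sum, and a link of Shh with that sum was not tested.

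Of 3 other surface proteins that bind Hedgehog, 2 were expressed and 1 was at least 2-fold lower. This was Gpc3, a glypican that competes with Patched1 for ligand, with 6.22 FPKM (wild type) against 0.976 FPKM (knockout) and a log2 ratio of -1.87. Gpc5, a glypican that favours binding to Patched1, had 0.855 and 1.47 FPKM.

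Downstream of Smo, 2 of 19 expressed genes were at least 2-fold lower, 3 were higher and 14 lay within 2-fold. Over all expressed records 8.67% were lower and 16.1% higher, so with 1 FPKM added both counts were near the background. The median log2 ratio was -0.12 against 0.09 over all expressed records. With 0.5 FPKM added in place of 1, 4 were lower and 4 higher, against 9.86% and 19.1% of all expressed records. The lower count was then above the background share. With 1 FPKM added, the lower ones were the transcription factor genes Gli1 and Gli2. Gli1 had 89.2 and 9.03 FPKM (log2 ratio -3.17), and Gli2 had 16.9 and 1.62 FPKM (log2 ratio -2.77). The higher ones were Arrb1, an arrestin, with 5.64 and 22.7 FPKM, Spop, an adaptor of protein breakdown, with 5.09 and 18.4 FPKM, and Mgrn1, a ubiquitin ligase that limits Smoothened at the membrane, with 17.4 and 38.7 FPKM. Evc, a cilium protein that binds Smoothened, had 4.56 and 1.84 FPKM, 40.3% of wild type (log2 ratio -0.97). Kif7, the cilium tip kinesin, had 1.75 and 0.429 FPKM, 24.5% of wild type (log2 ratio -0.95). Gpr161, also on this list, had 1.43 and 3.46 FPKM, 242.8% of wild type (log2 ratio 0.88). From the deposited FPKM with nothing added, Evc, Kif7 and Gpr161 were past 2-fold. The call for Evc also depended on the value used: from the bound midpoints, with 1 FPKM added, its log2 ratio was -1.07. Sufu, the inhibitor that holds Gli factors, had 18.6 and 17.0 FPKM.

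The list of 9 target genes of the pathway in granule neuron precursors shares Ptch1 and Hhip with the members. It also shares Gli1 with the list downstream of Smo. Of the 9, 7 were at least 2-fold lower and 0 were higher, against 8.67% and 16.1% of all expressed records. Their median log2 ratio was -2.16. The 2 within the limit were Ptch1 and Bcl2, an inhibitor of cell death, with 3.44 and 3.14 FPKM. Ptch1 was thus the target closest to its wild-type level after Bcl2. The knockout library had 71.3% of the wild-type level of Ptch1 and 10.1% of that of Gli1, and the ratio of Ptch1 to Gli1 was 0.730 in wild type and 5.14 in knockout. Hhip, at 34.1%, lay between them.

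**Figure D5:**
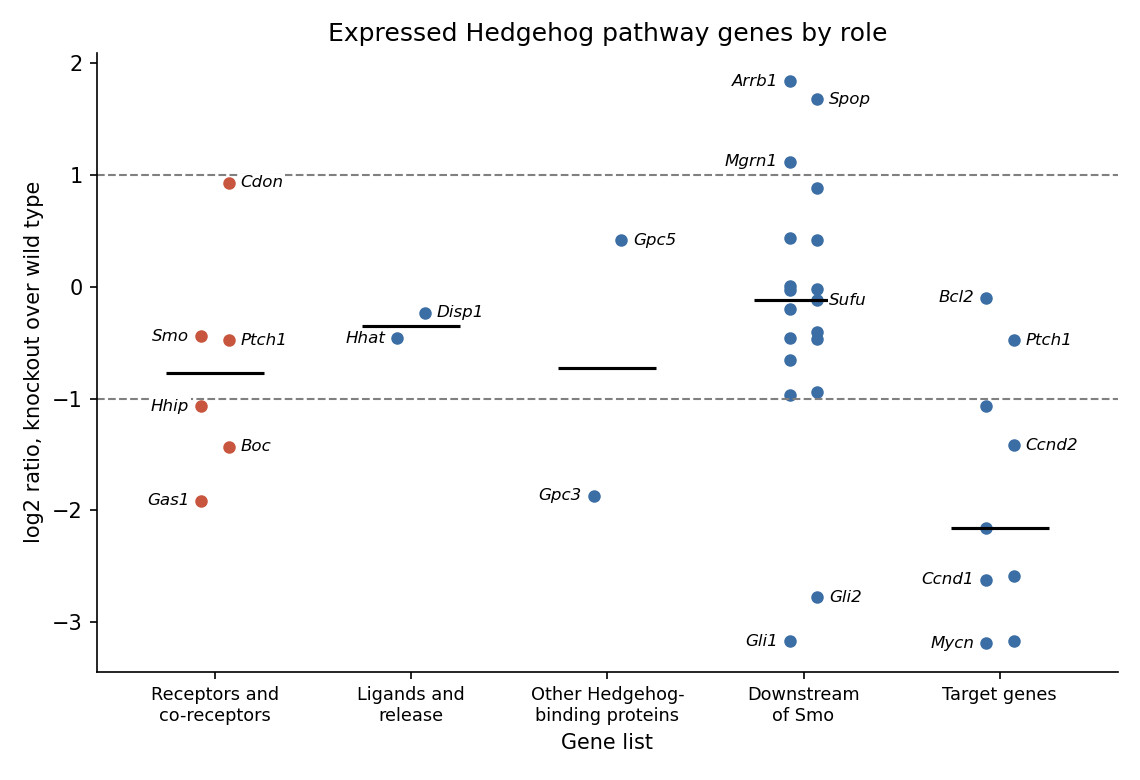
Log2 ratio of each expressed gene by list (points; receptors and co-receptors in red), with list medians as horizontal bars and 2-fold limits dashed. The receptors spread from -1.91 to 0.93, while target genes reach down to -3.19 with Ptch1 and Bcl2 as the only ones of that list inside the limits.

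The pairs of levels were also compared with those of all other expressed genes, by the distance between log2(FPKM + 1) values over the 2 libraries. The nearest gene was Schip1 for Ptch1 (distance 0.015), Zkscan3 for Smo (0.013), Alyref for Boc (0.063), Tes for Cdon (0.014) and Wdr90 for Gas1 (0.0017). For Hhip the nearest gene lay at 0.056. A likeness over 2 libraries is a description of levels only.

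Start regions were read from RefSeq promoter windows on GRCm38.p6, the build also called mm10, each of 250 bases before and 50 bases after a start site. Of the 6 members 5 had a window, all but Boc. The motif GACCACCCA, the sequence that Gli factors bind, was searched on both strands. It was in 0 of the 5 windows and in 0.253% of all 32851 windows. The exact motif is thus rare in any such window, and its absence from 5 says nothing on Gli binding to these genes. For Hhip, Cdon, Gas1 and Smo the window's start site was that of the deposited locus, and for Ptch1 it lay 215 bases away. The number of CG dinucleotides in the 250 upstream bases, a measure chosen after the levels were seen, was 41 for Ptch1, 28 for Hhip, 15 for Smo, 10 for Gas1 and 1 for Cdon, against a median of 6 over all windows. Cdon, with 42.8% G and C, had the lowest content of the 5, and 7.87% of all windows held fewer CG dinucleotides. The upstream starts that GENCODE M21 gives for Cdon, at 35421128, and for Ptch1, at 63573598, lie outside these windows, so the counts describe 1 start region of each gene.

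The upstream bases of the members with the lowest and the highest log2 ratio are shown to set their base composition side by side, 5′ to 3′ on the gene's strand, with CG dinucleotides in capitals. The Gas1 region is chr13:60177536-60177785 on the minus strand and the Cdon region is chr9:35451826-35452075 on the plus strand.
Gas1: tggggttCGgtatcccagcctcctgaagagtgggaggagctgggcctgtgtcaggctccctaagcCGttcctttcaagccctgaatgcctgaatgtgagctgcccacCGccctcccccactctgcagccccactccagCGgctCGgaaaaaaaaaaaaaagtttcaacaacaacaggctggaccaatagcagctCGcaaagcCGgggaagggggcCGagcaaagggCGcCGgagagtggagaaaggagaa
Cdon: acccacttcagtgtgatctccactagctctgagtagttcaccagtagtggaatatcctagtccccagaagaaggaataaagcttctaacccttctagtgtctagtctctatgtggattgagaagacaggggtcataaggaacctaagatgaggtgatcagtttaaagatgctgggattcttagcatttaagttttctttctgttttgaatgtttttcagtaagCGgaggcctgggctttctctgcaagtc
The 10 CG dinucleotides of Gas1 run from the upstream end of the region toward the start site, with more of them in the part nearer that site. The 1 of Cdon lies close to its start site.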

How the data were processed

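Gene expression was read from 2 deposited tables, 1 per library. Per the file headers, each record holds an FPKM, a low and a high bound for it and a status. Both mm10 and Cuffdiff 2.1.1 appear in the submitters' processing notes, with no role stated. Not given in the sources used here are the aligner, the annotation, the filters and how the bounds were made. Among 650 genes above 0 and under 0.05 FPKM in both libraries, the fullest bin of log2 ratios (width 0.1) held 7.69%, so no whole reads were recovered and the depth of each library is unknown. Deposited starts count from 0. Read so, they met an annotated start for 51.7% of the 20911 symbols shared with GENCODE M21, and read from 1 for 4.91%. Coordinates in the text count from 1.

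Records were joined by symbol and locus. The log2 ratio used a pseudocount of 1 FPKM. The members and gene lists were chosen with earlier results of these data known. By the rule for named genes these were the members, Smarca4, any genes of the Hedgehog lists and, for each member, the nearest gene; 1 nearest gene and 1 gene of the lists are not reported here at all. Xist, named for its values, and the genes overlapping Gas1 and Smo fall outside the rule. Alternatives were other pseudocounts, scalings, filters, fold limits and the bound midpoints. One, the knockout FPKM rescaled to the wild-type sum, was chosen after seeing the data. Scripts ran in Python 3.11.15 with pandas 2.3.3, numpy 2.4.6 and, for figures, matplotlib 3.10.9.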

Additional observations from a re-analysis of the deposited data

How the results depend on the processing

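Of the 12 alternatives, 5 could change the direction of a member (3 scalings, centring on the median and the bound midpoints), and under these no member did. Ptch1 and Smo stayed within 2-fold in these 5, with log2 ratios from -0.56 to -0.30 and from -0.53 to -0.27. Cdon passed 2-fold with 0.1 FPKM added (log2 ratio 1.48), with 0.5 FPKM added (1.17), with FPKM rescaled to the same sum (1.39) and with the knockout FPKM rescaled to the wild-type sum (1.06), and 1 member was then higher. With the last setting Hhip fell inside the limit (log2 ratio -0.96), while 2 members still passed it. Under a 1.5-fold rule Cdon (0.93) counted as higher, so 1 member was higher. Under a 4-fold rule 0 members were lower, since Hhip (-1.07), Boc (-1.43) and Gas1 (-1.91) lay inside it. The count of lower genes downstream of Smo went from 2 to 4 with 0.1 or 0.5 FPKM added, with FPKM rescaled to the sum that TPM has (which also shrinks the added 1 FPKM in effect) or with centring on the median, and to 5 under the 1.5-fold rule. It was 3 from the bound midpoints and 2 with the knockout FPKM rescaled to the wild-type sum. The lower share of all expressed records was 10.9% with 0.1 FPKM added and 9.86% with 0.5 FPKM added. That share was 7.71% with the TPM sum, 10.2% with centring and 18.0% under the 1.5-fold rule. From the bound midpoints it was 8.74%, and with the knockout FPKM rescaled to the wild-type sum 6.67%. The count of higher genes downstream of Smo went from 3 to 4 with 0.1 or 0.5 FPKM added, with either rescaling and under the 1.5-fold rule. The higher share of all expressed records was 21.4% with 0.1 FPKM added and 19.1% with 0.5 FPKM added. It was 23.3% with the TPM sum, 19.8% with the knockout FPKM rescaled to the wild-type sum and 28.1% under the 1.5-fold rule. Under the 4-fold rule 0 genes downstream of Smo were higher and 0 other surface protein genes were lower. The count of lower target genes went from 7 to 5 under the 4-fold rule. It was 6 with the knockout FPKM rescaled to the wild-type sum or with a filter of 5 FPKM. With a filter of 5 FPKM Hhip and Cdon dropped out. Rescaling to the sum that TPM has moved the median of all expressed records from 0.09 to 0.26 and that of the members from -0.77 to -0.74. With the knockout FPKM rescaled to the wild-type sum, these medians were 0.24 and -0.63. With no filter on low values 4.85% of records were lower and 9.01% higher. No paired analysis was possible because each genotype has 1 library and the labels carry no replicate numbers. Depth is unknown, so the precision of low values such as those of Cdon and Hhip cannot be given.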
